A study of Homo sapiens with 4 samples.

Results

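The 9 genes described here are targets of NRF2, the transcription factor that switches on cellular defences against oxidants and electrophiles: NQO1, GCLM, GCLC, HMOX1, TXNRD1, SRXN1, FTH1, FTL and GPX2. They were chosen by symbol as known targets of the pathway, and all 9 were found among the 47251 genes in each deposited table. The values come from HCT116, an established human colon cancer cell line, whose poly(A) RNA was sequenced in 4 libraries. The vector library came from cells given 2 µg of control vector and the overexpression library from cells given 2 µg of a pCMV-entry plasmid that carries TTC22 (TTC22V1). The scramble library came from cells given a scrambled siRNA at 100 nM and the knockdown library from cells given 3 pooled siRNAs against TTC22 at 100 nM in total. RNA was collected 48 hours after transfection in each group. Both controls were themselves transfected, and no untransfected library was used here. TTC22, a protein with tetratricopeptide repeats, was thus raised by transient transfection of a whole culture.

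Under resting conditions NRF2, encoded by NFE2L2, is held by the adapter KEAP1 and passed to a CUL3 ubiquitin ligase for destruction. Oxidants and electrophiles modify cysteines of KEAP1, so that NRF2 accumulates, pairs with a small MAF protein and binds antioxidant response elements, short DNA motifs near its target genes. The repressor BACH1 competes for the same elements, above all at HMOX1. The targets make and regenerate glutathione and thioredoxin, detoxify quinones and haem, and store iron. GPX2 is the glutathione peroxidase typical of the gut epithelium.

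The core of the antioxidant response element was looked for near the start sites of these genes. Matches in GPX2, GCLM and TXNRD1 are shown as shared letters, and binding by NRF2 was not measured. RefSeq promoter windows on GRCh38.p14, from 250 bases before to 50 bases after a start site, were matched for 7 of the 9 genes, in 8 windows. The longer form of the core, TGACNNNGCA, was searched on both strands and occurred in 3 of these 8 windows. It occurred in 3.18% of all 35116 windows of the same length. The shorter form TGACNNNGC, which the longer form contains, occurred in 4 of the 8 windows and in 13.3% of all windows. In the sequences below, written 5′ to 3′ on the strand of the gene, capitals mark the match to the longer form, which reads as TGACNNNGCA on the opposite strand.
GPX2, chr14:64942834-64942893, minus strand: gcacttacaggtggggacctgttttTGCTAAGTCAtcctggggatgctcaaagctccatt
GCLM, chr1:93909456-93909490, minus strand: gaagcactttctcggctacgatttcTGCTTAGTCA
TXNRD1, chr12:104286919-104286948, plus strand: agtggatttcTGCTTTGTCAttctgactct
The GPX2 match spans bases 123 to 114 before the RefSeq start, and the GCLM match bases 35 to 26. The last base of the GCLM match as written is also the first base of GCLM in GENCODE 44. The TXNRD1 match lies 103 to 94 bases before an internal start site and overlaps exon sequence annotated in GENCODE 44. Windows of NQO1, GCLC, FTL and SRXN1 held no match to either form, which says only that these letters are absent from those windows. The 3 genes that share the longer form did not share a pattern of expression, as their values below show.

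The values are taken to be FPKM, fragments per unit of transcript length and per size of the library, a unit inferred from the numbers. Each group had 1 library. Differences therefore carry no replicate error and no test, and the values describe the libraries, not the conditions in general. A gene counted as measured in a comparison if the mean of the pair was at least 1 FPKM. It was called higher or lower if its log2 fold, on the scale of log2(FPKM + 1), was at least 1 in size. Values in each library summed to between 181102 and 205734 FPKM, and the number of reads behind them is unknown. TTC22 stood at 4.46 FPKM with vector and 24215 FPKM with overexpression, and at 10.7 FPKM with scramble and 6.54 FPKM with knockdown. For knockdown over scramble the log2 fold of TTC22 was −0.63, which did not reach the size rule. The name knockdown therefore states the treatment, not a called loss of TTC22 RNA. In the overexpression library TTC22 took 12.8% of the FPKM sum, and the median log2 fold of all genes in the plasmid comparison was −0.21. Of 8 markers of colon epithelium, EPCAM, KRT8, KRT18 and KRT19 stood above 100 FPKM in all 4 libraries, CDH1 stood between 8.68 and 17.6 FPKM, and CDH17 and VIL1 stayed below 0.1 FPKM. CDX2, an intestinal transcription factor, was called lower with overexpression, at 1.63 against 4.29 FPKM (log2 fold −1.01, or −0.80 and not past the rule relative to all genes), and was at 1.28 against 2.80 FPKM with knockdown. Of 8 markers of other cells, PTPRC and CD3E were at or near 0, and 3 reached 1 FPKM in each library. The summed level of these 8 was 12.2 and 9.77 FPKM with vector and overexpression, and 47.8 and 41.8 FPKM with scramble and knockdown, nearly all of it CD68 in the siRNA libraries.

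On the log2(FPKM + 1) scale FTL differed most in both experiments among the members present in all libraries. It encodes the light chain of ferritin, the iron storage shell (ENSG00000087086, chromosome 19, 48965309 to 48966879, plus strand of hg38, 4 exons). FTL was at 1551 FPKM with vector, 627 FPKM with overexpression, 1317 FPKM with scramble and 2426 FPKM with knockdown. The overexpression library was the lowest of the 4 and the knockdown library the highest, with both controls between them. Overexpression over vector gave a log2 fold of −1.30, or −1.10 relative to the median of all genes, and FTL was called lower. Knockdown over scramble gave 0.88, which did not reach the size rule, and the linear ratio was 1.84.

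FTH1 encodes the heavy chain of ferritin, which oxidises iron for storage (ENSG00000167996, chromosome 11, 61959718 to 61967634, minus strand, up to 5 exons). It was at 425 FPKM with vector, 447 FPKM with overexpression, 731 FPKM with scramble and 629 FPKM with knockdown. Both siRNA libraries lay above both plasmid libraries, and the log2 folds within the experiments were small, 0.07 with overexpression and −0.22 with knockdown. The heavy and light chain transcripts therefore did not keep one ratio. FTH1 over FTL was 0.274 with vector, 0.713 with overexpression, 0.555 with scramble and 0.259 with knockdown. Together the ferritin transcripts made up 0.570% of the summed FPKM with overexpression, 1.02% with vector, 1.13% with scramble and 1.48% with knockdown. Ferritin genes have many processed pseudogenes, and how reads shared with them were assigned is not given in the sources used here. GENCODE 44 names 25 FTH1 and 16 FTL pseudogenes, of which the tables list 1 each. The listed FTH1 pseudogene reached at most 0.687% of FTH1, and the listed FTL pseudogene was at 0 in all 4 libraries. FTH1 also shares exon bases with BEST1 on the opposite strand, which stood between 2.98 and 5.74 FPKM.

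GPX2 encodes a selenium-dependent glutathione peroxidase of the gut (ENSG00000176153, chromosome 14, 64939152 to 64942746, minus strand, up to 3 exons). It was at 9.95 FPKM with vector, was listed at 0 with overexpression and with scramble, and stood at 0.369 FPKM with knockdown. Only the vector library held it above 1 FPKM. CDX2 too was highest in that library, and its part in the GPX2 values was not tested. By the size rule it was lower with overexpression, and no fold is given against a library listed at 0. An exact 0 can be a failed estimate: PCBP1, an abundantly expressed gene of 1 exon that encodes an iron chaperone and RNA-binding protein, was listed at 0 in all 4 libraries. The size rule took in 24.2% of measured genes with fewer than 4 exons in the plasmid comparison, and 4.43% of the rest. Whether the quantification set the GPX2 values was not tested.

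**Figure D1:**
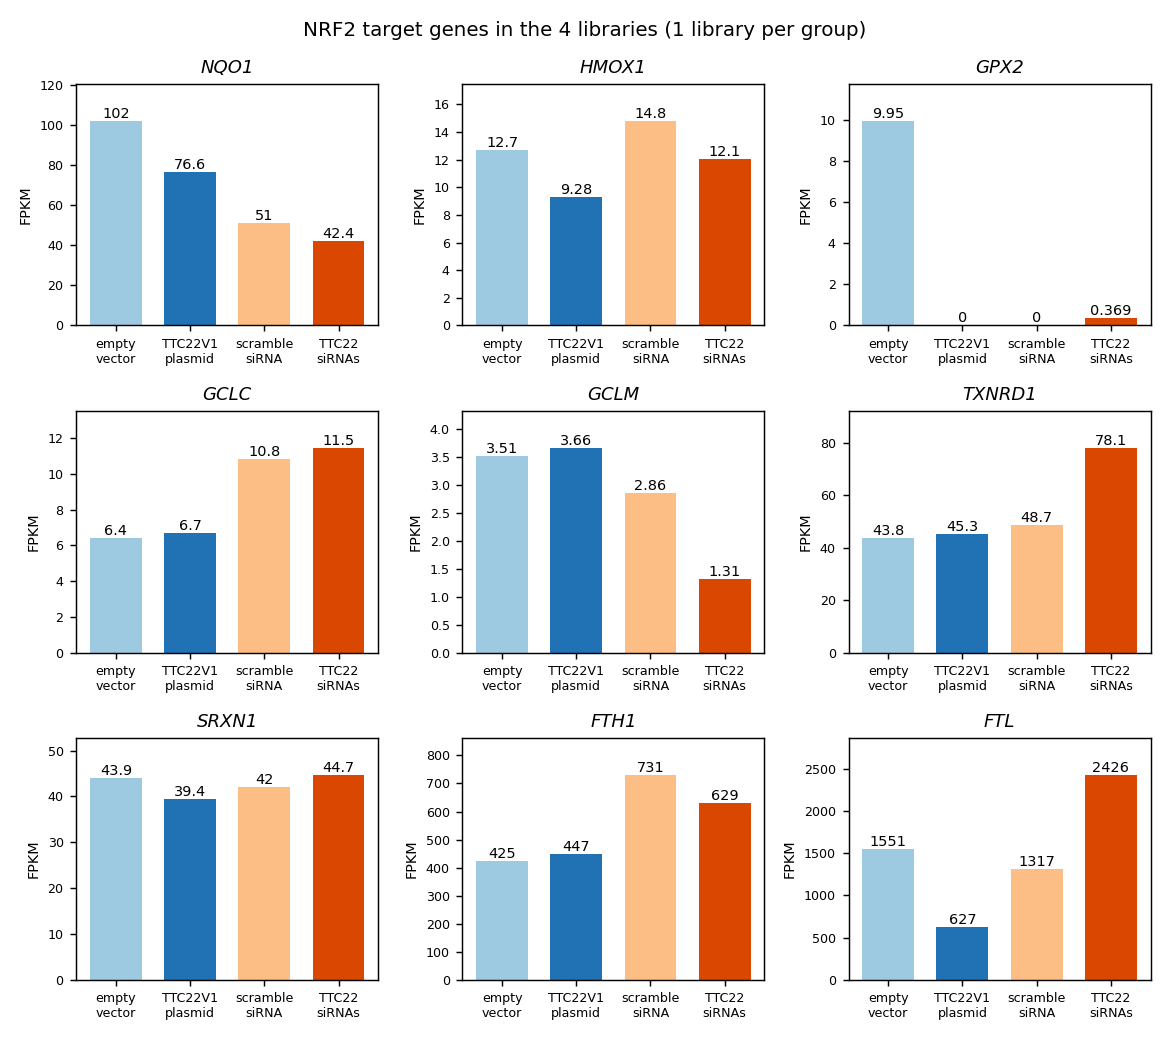
FPKM of the 9 NRF2 target genes in each library, with 1 bar per library, each axis starting at 0 and light bars for the controls. FTL is lowest with overexpression (627 FPKM) and highest with knockdown (2426 FPKM), GPX2 is above 1 FPKM with vector alone, and SRXN1 stays between 39.4 and 44.7 FPKM.

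The quinone reductase and haem oxygenase genes differed less within either experiment. NQO1 encodes the enzyme that reduces quinones by transfer of a pair of electrons (ENSG00000181019, chromosome 16, 69706996 to 69726668, minus strand, up to 6 exons). It was at 102 FPKM with vector, 76.6 FPKM with overexpression, 51.0 FPKM with scramble and 42.4 FPKM with knockdown. Each treated library lay below its own control, at log2 folds of −0.41 and −0.26, or −0.21 and −0.24 relative to all genes. The larger gap was between the experiments, with both siRNA libraries below both plasmid libraries. HMOX1 encodes the inducible haem oxygenase, which opens haem to biliverdin, iron and carbon monoxide (ENSG00000100292, chromosome 22, 35380361 to 35394214, plus strand, up to 5 exons). It was at 12.7 FPKM with vector, 9.28 FPKM with overexpression, 14.8 FPKM with scramble and 12.1 FPKM with knockdown. Each treated library again lay below its control, at log2 folds of −0.42 and −0.28, and the levels of the 2 experiments overlapped. Neither gene passed the size rule within an experiment.

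GCLC and GCLM encode the catalytic and the modifier subunit of glutamate-cysteine ligase, the enzyme of the first and rate-limiting step of glutathione synthesis. GCLC (ENSG00000001084, chromosome 6, 53497341 to 53616970, minus strand, up to 16 exons) was at 6.40 FPKM with vector, 6.70 FPKM with overexpression, 10.8 FPKM with scramble and 11.5 FPKM with knockdown. It hardly differed within either experiment, at log2 folds of 0.06 and 0.08, and was higher in both siRNA libraries than in both plasmid libraries. GCLM (ENSG00000023909, chromosome 1, 93885199 to 93909456, minus strand, up to 7 exons) was at 3.51 FPKM with vector, 3.66 FPKM with overexpression, 2.86 FPKM with scramble and 1.31 FPKM with knockdown. The knockdown library was the lowest of the 4. Knockdown over scramble gave a log2 fold of −0.74, short of the size rule, at a linear ratio of 0.457. With a pseudocount of 0.1 in place of 1 the fold was −1.07 and passed it. GCLC over GCLM was 1.82 with vector and 1.83 with overexpression, against 3.78 with scramble and 8.77 with knockdown. The subunits' ratio was thus alike in the plasmid libraries and wide apart in the siRNA libraries. The ratio of 8.77 rests on GCLM at 1.31 FPKM, a low value at unknown depth.

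TXNRD1 encodes the cytosolic thioredoxin reductase, a selenoprotein that keeps thioredoxin reduced (ENSG00000198431, chromosome 12, 104215779 to 104350307, plus strand, up to 17 exons). It was at 43.8 FPKM with vector, 45.3 FPKM with overexpression, 48.7 FPKM with scramble and 78.1 FPKM with knockdown. The knockdown library stood apart from the other 3, at a log2 fold of 0.67 over scramble, which did not reach the size rule. SRXN1 encodes sulfiredoxin, which restores overoxidised peroxiredoxins (ENSG00000271303, chromosome 20, 646615 to 653200, minus strand, 2 exons). It was at 43.9 FPKM with vector, 39.4 FPKM with overexpression, 42.0 FPKM with scramble and 44.7 FPKM with knockdown. Its range over the 4 libraries, 0.18 on the log2 scale, was the narrowest of the 9 genes.

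In the plasmid comparison, then, 2 of the 9 members were called lower, FTL and GPX2, and 0 higher. The same rule called 4.1% of 10191 measured genes lower and 2.08% higher, or 6.18% in all. GPX2 counted as measured there through the vector library alone. The member median was −0.15, against −0.21 for all genes. It is 0.06 relative to all genes, so its sign depends on the scaling, and 5 members lay above the median of all genes and 4 below. In the siRNA comparison 8 members were measured, GPX2 being too low, and 0 were called, where the rule called 2.57% of 9744 genes higher and 2.19% lower, or 4.75% in all. The member median was −0.07, against −0.02 for all genes, with 4 members above 0 and 4 below. Nearest to the rule were FTL and TXNRD1 upwards and GCLM downwards. The 3 lay outside the range from the 5th to the 95th percentile of all measured genes, which ran from −0.62 to 0.65.

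**Figure D2:**
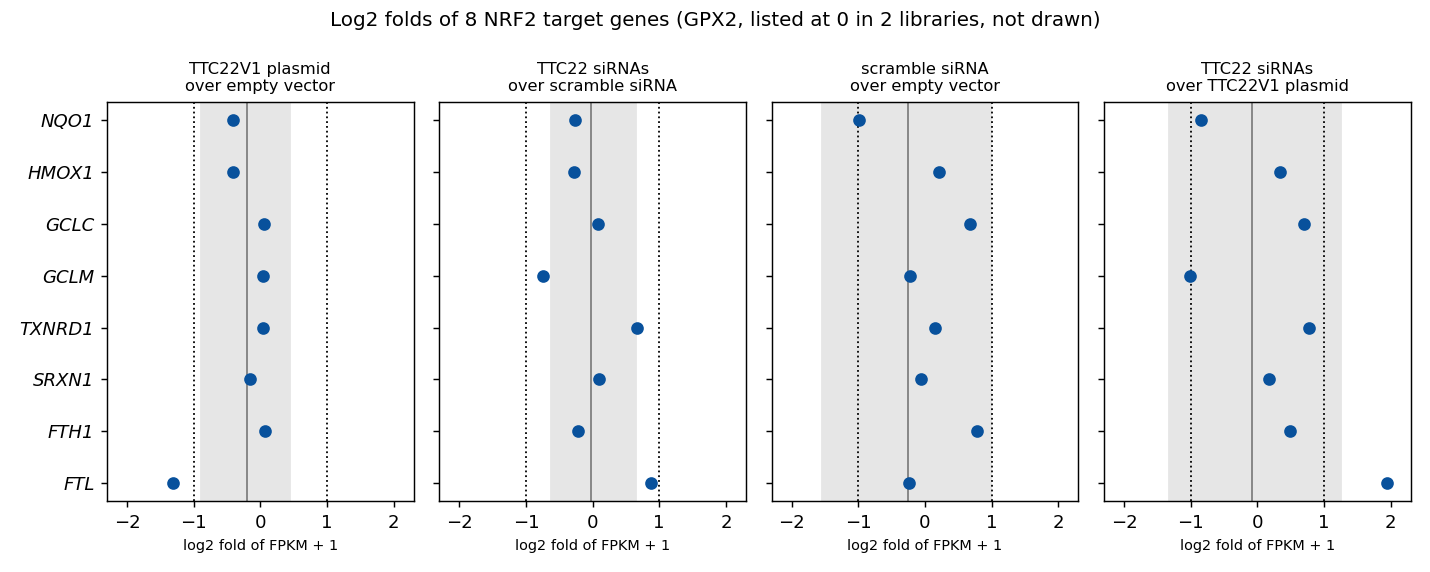
Log2 folds of 8 members in each comparison, on the log2(FPKM + 1) scale, with the range from the 5th to the 95th percentile of all measured genes in grey, their median as a grey line and the size rule as dotted lines. FTL lies at −1.30 with overexpression and 0.88 with knockdown, and the other 7 members stay within the size rule in both experiments.

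The regulators of NRF2 were examined beside its targets. NFE2L2, which encodes NRF2 itself, was at 10.3 FPKM with vector, 3.86 FPKM with overexpression, 4.003 FPKM with scramble and 7.30 FPKM with knockdown. It was called lower with overexpression, by −1.22 on the log2 scale (−1.02 once centred on all genes), and stood at 0.73 with knockdown. The overexpression and scramble libraries lay close together, so a high vector library and a fall with TTC22V1 cannot be told apart. KEAP1 was at 22.0 FPKM with vector, 15.1 FPKM with overexpression, 12.8 FPKM with scramble and 11.5 FPKM with knockdown, and passed the rule in neither experiment. NFE2L2 over KEAP1 was 0.470 with vector, 0.255 with overexpression, 0.312 with scramble and 0.632 with knockdown. NFE2L3, a relative of NRF2 from the same CNC family, was called higher with overexpression, at 11.7 FPKM against 1.40 FPKM with vector. It was at 1.92 FPKM with scramble and 1.37 FPKM with knockdown, so the overexpression library alone stood apart. Of the 12 regulators 1 was higher and 1 lower in the plasmid comparison, where 2.08% and 4.1% of all measured genes were. In the siRNA comparison 0 passed, against 4.75% of all measured genes, and MAFF (1.52 against 3.45 FPKM) was the farthest from 0. With 12 genes, no difference from these shares is read. The list medians were −0.16 and −0.02, close to those of all genes. BACH1 stood between 2.34 and 4.74 FPKM, and was higher in both siRNA libraries.

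**Figure D3:**
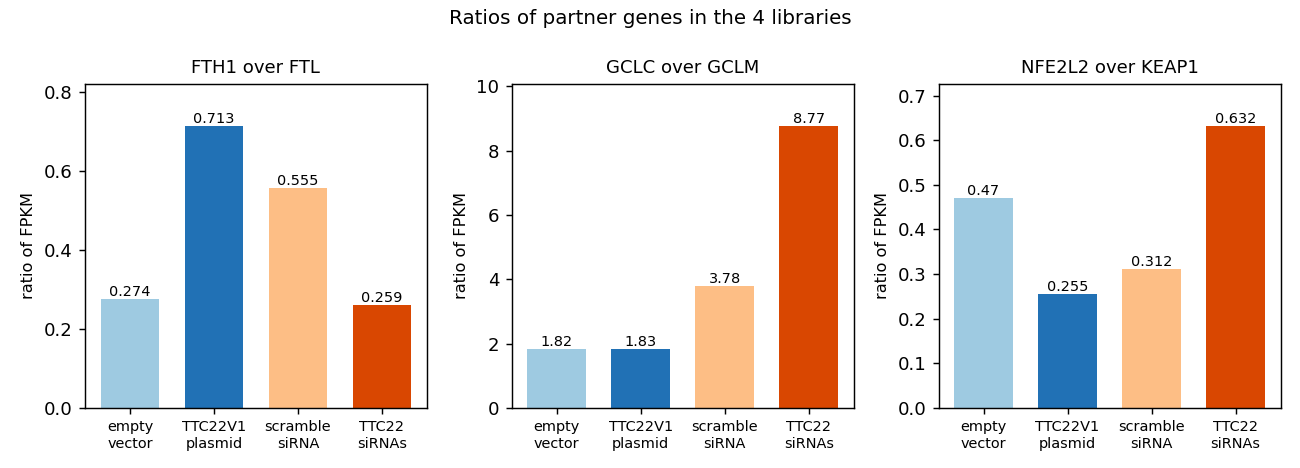
Ratios of FPKM between partner genes in each library, with 1 bar per library and axes from 0. The highest ratio of GCLC over GCLM rests on a low GCLM value, 1.31 FPKM. FTH1 over FTL and NFE2L2 over KEAP1 are ordered in opposite ways, 0.713 and 0.255 with overexpression against 0.259 and 0.632 with knockdown, while GCLC over GCLM sets the siRNA libraries (3.78 and 8.77) apart from the plasmid libraries (1.82 and 1.83).

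Over the 7 related lists 5 of 75 measured genes, or 6.67%, passed the size rule in the plasmid comparison, near the 6.18% of all genes. In the siRNA comparison 1 of 77 passed, or 1.3%, against 4.75% of all genes. Of 16 measured glutathione genes 0 passed in either comparison, with list medians of −0.18 and −0.05. The cystine carrier gene SLC7A11 was at 5.34 against 3.59 FPKM with overexpression and at 3.14 against 1.81 FPKM with knockdown. Of 14 thioredoxin and peroxiredoxin genes 1 was lower with overexpression, MSRB1, a selenoprotein that repairs oxidised methionine, at 3.64 against 8.85 FPKM. Relative to all genes MSRB1 stood at −0.88 and did not pass. None of the 14 passed with knockdown, where PRDX6 (43.3 against 81.6 FPKM) was the lowest and SESN2 (28.9 against 16.5 FPKM) the highest. No member passed in either comparison among 6 genes of NADPH supply, 14 of haem and iron, and 3 of superoxide and catalase. The last list had a median of −0.65 with knockdown, from SOD1 (30.3 against 48.2 FPKM), SOD2 (1.13 against 2.47 FPKM) and CAT (17.1 against 16.1 FPKM).

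Among detoxification and export genes, 2 of 10 measured were lower with overexpression, where 4.1% of all genes were. OSGIN1, an NRF2 target that restrains growth under oxidative stress, was at 12.5 FPKM with vector, 5.13 FPKM with overexpression, 5.03 FPKM with scramble and 9.68 FPKM with knockdown. The vector and knockdown libraries were high and the others low, the same split as for NFE2L2. Its log2 fold with overexpression was −1.14, or −0.94 relative to all genes, where it no longer passed, and 0.82 with knockdown. CBR1, a carbonyl reductase gene with up to 3 exons, was at 4.20 FPKM with vector and 0.0198 FPKM with overexpression, and it was listed at 0 with scramble and at 0.495 FPKM with knockdown. Like GPX2 it was above 1 FPKM with vector alone, and it counted as measured in the plasmid comparison through that library. No excess of lower genes is read from these 2 calls. With knockdown 1 of 12 measured genes of this list was higher, where 2.57% of all measured genes were. This was UGT1A6, at 2.19 FPKM against a scramble value listed at 0. It counted as measured through the knockdown library alone, and no excess of higher genes is read from this call. UGT1A6 shares exons with other UGT1A genes, and its level is uncertain for that reason.

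Between the experiments the differences were wider for all genes, and the member values were set side by side as a description. The 2 tables were normalised separately, and the kind of transfection, the nucleic acid given and the experiment cannot be told apart. For scramble over vector, 1 of 9 members passed the rule, GPX2, against 19.1% of 10214 measured genes (4.99% higher and 14.1% lower). GPX2 counted as measured here too through the vector library alone, and without it the count was 0. No result about the members is read from this call. NQO1, at a linear ratio of 0.498, lay just inside the rule at −0.99, with GCLC at 0.68 and FTH1 at 0.78. Relative to all genes FTH1 was at 1.03, past the rule, and NQO1 at −0.74. For knockdown over overexpression, 2 of 8 measured members passed, FTL at 1.95 and GCLM at −1.01, against 17.5% of 9941 genes (7.79% higher and 9.74% lower). GCLM was within the rule relative to all genes, at −0.93. With TTC22 left out of the total NQO1 passed as well, at −1.04. NQO1 (−0.84), GCLC (0.70) and FTH1 (0.49) kept the directions they had between the controls, and FTL, at −0.24 between the controls, did not. The member medians were −0.06 and 0.42, against −0.25 and −0.08 for all genes.

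Some other genes of the pathway were lower in both siRNA libraries, and those named here were chosen after their values had been seen. The 6 genes of NADPH supply that are reported here, of a longer list, lay below 0 in both comparisons between the experiments, with medians of −0.76 and −0.86. Of these, 3 were called lower between the controls, where 14.1% of all genes were. Between the treated libraries 1 was, where 9.74% of all genes were. Relative to the median of all genes, 6 and 4 of the 6 lay below, and 0 and 1 passed. TALDO1, the transaldolase of the pentose phosphate pathway, was at 66.1 and 53.8 FPKM in the vector and overexpression libraries and at 27.8 and 21.9 FPKM in scramble and knockdown. In all, 11 of 76 genes of the 7 related lists that were measured in both comparisons were lower in both, which is 14.5%, against 6.7% of 9718 genes. None of the 76 was higher in both, against 2.7% of the 9718 genes. After centring on all genes the count lower in both was 6 of 76, or 7.89%, against 4.71% of all genes. The count higher in both was then 1 of 76, or 1.32%, against 4.24% of all genes. The 11 were ABCC2, AKR1B1, GPX1, GSTP1, MSRB1, PIR, PRDX2, PRDX3, SOD1, TALDO1 and UROD. GSTP1, the main glutathione transferase of many tumours, was at 297 and 219 FPKM with vector and overexpression and at 116 and 108 FPKM with scramble and knockdown. SOD1, the cytosolic superoxide dismutase, was at 128 FPKM in both plasmid libraries, 48.2 FPKM with scramble and 30.3 FPKM with knockdown. Of the 8 members measured in both comparisons 0 were lower in both and 0 higher in both. CD68, a marker of macrophages, was at 6.34 and 5.76 FPKM in the plasmid libraries and at 42.6 and 37.2 FPKM in scramble and knockdown. The other 7 markers of other cells stayed below 3 FPKM, and the part of CD68 in these differences was not tested.

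**Figure D4:**
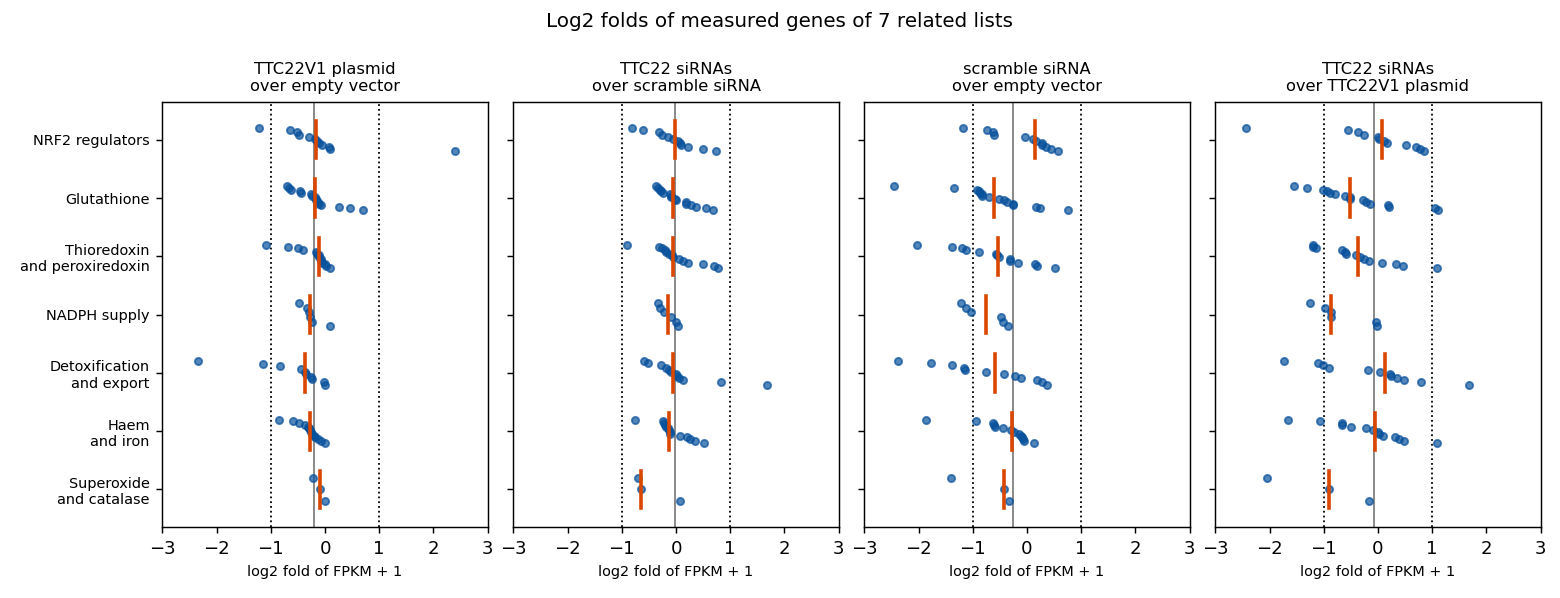
Log2 folds, on the log2(FPKM + 1) scale, of the measured genes of 7 lists related to NRF2, with 1 point per gene, an orange bar at the list median, a grey line at the median of all measured genes and dotted lines at the size rule; points of CBR1 and UGT1A6 rest on libraries at or near 0. Within the experiments the list medians lie near that of all genes, except superoxide and catalase with knockdown, 3 genes with a median of −0.65. Between the experiments NADPH supply has medians of −0.76 and −0.86, against −0.25 and −0.08 for all genes. Also below all genes in both are glutathione (−0.62 and −0.52), thioredoxin and peroxiredoxin (−0.53 and −0.37), and superoxide and catalase (−0.43 and −0.91). NRF2 regulators lie above (0.15 and 0.07), and the remaining lists lie below between the controls and above between the treated libraries.

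Genes with the most similar profiles over the 4 libraries were sought for the 3 members with the widest range, among 5167 other genes that averaged 5 FPKM or more and were listed at 0 in no library. Likeness was the root mean square distance between profiles of log2(FPKM + 1), each centred on its own mean. For NQO1 the nearest were the mitochondrial carrier gene SLC25A39, at a distance of 0.01, then PTGFRN and ZC3HC1. SLC25A39 was at 76.9 FPKM with vector, 57.4 FPKM with overexpression, 38.5 FPKM with scramble and 31.1 FPKM with knockdown, the same order as NQO1. For FTL they were NET1, at 0.07, then PPP1CB and DDIT3. NET1, which encodes an exchange factor for RHOA, was at 15.5 FPKM with vector, 5.83 FPKM with overexpression, 11.6 FPKM with scramble and 23.6 FPKM with knockdown. For GPX2 the nearest were farther off, COX14 at 0.38, then ATP6V1G1 and CKS1B, with up to 3, 4 and 3 exons. These too were highest with vector, which follows from choosing close profiles. GPX2 was itself listed at 0 with overexpression and scramble and would not have met the filter, so its larger distances can come from the search. With 4 points per profile many genes match closely, so these names are a description only.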

How the data were processed

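Per the labels' protocols, paired-end libraries were made from poly(A) RNA of HCT116 cells, with 1 library per group and 4 in all. The submitters' processing notes name STAR, with no version, and hg38. Which program computed the values, with what annotation, strand setting and filters, is not given in the sources used here. Each of the 2 deposited tables covers 1 experiment, and its values, made by the authors, are taken to be FPKM. The unit was inferred, since the values are neither whole nor of equal sum in each library. Reads were not counted here and depth is unknown, so no counting interval could be given.

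Folds were taken on log2(FPKM + 1) with Python 3.11.15, numpy 2.4.6 and pandas 2.3.3. The size rule of 2-fold at a pair mean of at least 1 FPKM stood in for a test. The script was checked on simulated data. Exon numbers and coordinates come from GENCODE 44 on hg38, and promoter windows from RefSeq on GRCh38.p14. Members, the 7 related lists and the comparisons were chosen with earlier results of these data known. All members are named, with list genes past the size rule within an experiment (up to 4 per list), NFE2L2, KEAP1, TTC22 and the 3 nearest profiles of the 3 widest-ranging members. Further list genes, given as the farthest of a list or between the experiments, were chosen after their values were seen. A gene of the NADPH supply list is not reported here and was left out of the list counts. Where a symbol had several rows, the row with the highest values was used. Alternatives were centred folds, a pseudocount of 0.1, a pair mean of 5 FPKM or none as the filter, 1.5-fold and 4-fold sizes, TTC22 left out of the total, the mean in place of the median, and, chosen after seeing the data, GPX2 left out.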

Additional observations from a re-analysis of the deposited data

How the results depend on the processing

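With 1 library per group no replicate could be left out, and depth limits could not be set. No paired analysis was possible because each group has 1 library. The 2 members called lower with overexpression became 1 without GPX2, with a mean of at least 5 FPKM or with the 4-fold size, and was 2 under the other alternatives. The siRNA count of 0 became 1 with a pseudocount of 0.1 and 3 at 1.5-fold. For scramble over vector the count of 1 became 2 with a pseudocount of 0.1 or centred folds, 4 at 1.5-fold, and 0 with a mean of at least 5 FPKM or without GPX2. For knockdown over overexpression the count of 2 became 1 with centred folds or a mean of at least 5 FPKM, 5 at 1.5-fold, 0 at 4-fold, and 3 with TTC22 left out of the total, where NQO1 reached −1.04. Member medians changed sign as follows. In the plasmid comparison −0.15 became 0.055 with centred folds and 0.042 with TTC22 left out of the total. In the siRNA comparison −0.07 became 0.077 with no filter or a mean of at least 5 FPKM, and the mean was 0.028. For scramble over vector −0.06 became 0.19 with centred folds, 0.15 with a mean of at least 5 FPKM and 0.043 without GPX2. The median for knockdown over overexpression stayed above 0 under the alternatives run. Filters and sizes act by changing which members count; causes of other changes were not tested. Of 108 member folds under a pseudocount of 0.1, centring or TTC22 left out, 101 kept their side of a log2 size of 1. Another 6 newly reached it and 1 no longer did. The filter on the pair mean was not applied to these folds. The 6 include GPX2 with a pseudocount of 0.1, at 2.23 in knockdown over scramble and over overexpression, where it was too low to be measured.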
